A study of Homo sapiens with 6 samples.

Results

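Gene expression in PC-3, an established human prostate cancer cell line derived from a bone metastasis, was described from its 2 arrays. These are 2 of the 6 arrays of a series that also holds 2 arrays each of TEM4-18 and TEM2-5, lines isolated from PC-3 after passage through a layer of lung microvascular endothelial cells. All 3 lines were cultured in DMEM/F12 medium with fetal bovine serum, and the labels name no treatment. The genotype of the cells is not stated in the labels. The 2 PC-3 arrays carry the replicate numbers 1 and 2, and the labels do not say whether they came from separate cultures, so the spread between them may be technical. Every gene was represented by the probe set with the highest mean signal among those annotated with that gene's symbol alone, and 19775 genes were ranked by that mean. With a single group there was nothing to test, and the values below describe how strongly each gene of PC-3 was read. Where 2 signals are given for a gene, replicate 1 comes first and replicate 2 second.

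PC-3 cells grow without androgen and form tumours in bone. The adult prostate gland is lined by luminal cells, which carry keratins 8 and 18 and secrete androgen-dependent proteins such as kallikreins, over a layer of basal cells that carry keratins 5 and 14. PC-3 is known as a poorly differentiated line that has lost alpha-catenin, the protein that ties cadherin complexes to actin. The arrays report a background-corrected fluorescence for each probe set. That signal depends on how well the probes bind as well as on the RNA present, so an order of genes is an order of signals and not of RNA amounts.

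The near-background level was set by olfactory receptor genes, the odorant receptors of the nasal epithelium, most of which are not known in prostate. The 82 olfactory receptor genes on the array had a median signal of 120.0, from 11.8 to 639, and the 90th percentile of their signals, 298, was taken as the upper limit of near background. OR51E1 and OR51E2, which are known to be expressed in prostate, were themselves low, with signals of 154 and 189.9 and of 59.4 and 112, and without them the limit again rounded to 298, with 7786 genes near background. Genes at or above the 90th percentile of all genes, a signal of 9223, were called bright. Of the genes between these limits, those up to 2476, the median of the genes above the near-background level, were called weak and the others moderate. The ranking held 1978 bright genes (10.0%), 4022 moderate genes (20.3%), 6001 weak genes (30.3%) and 7774 genes near background (39.3%). The median gene had a signal of 684 and the brightest, the cytoskeletal actin ACTB, 114813. A gene near background was not separable from this limit and was not thereby shown to be unexpressed.

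**Figure D1:**
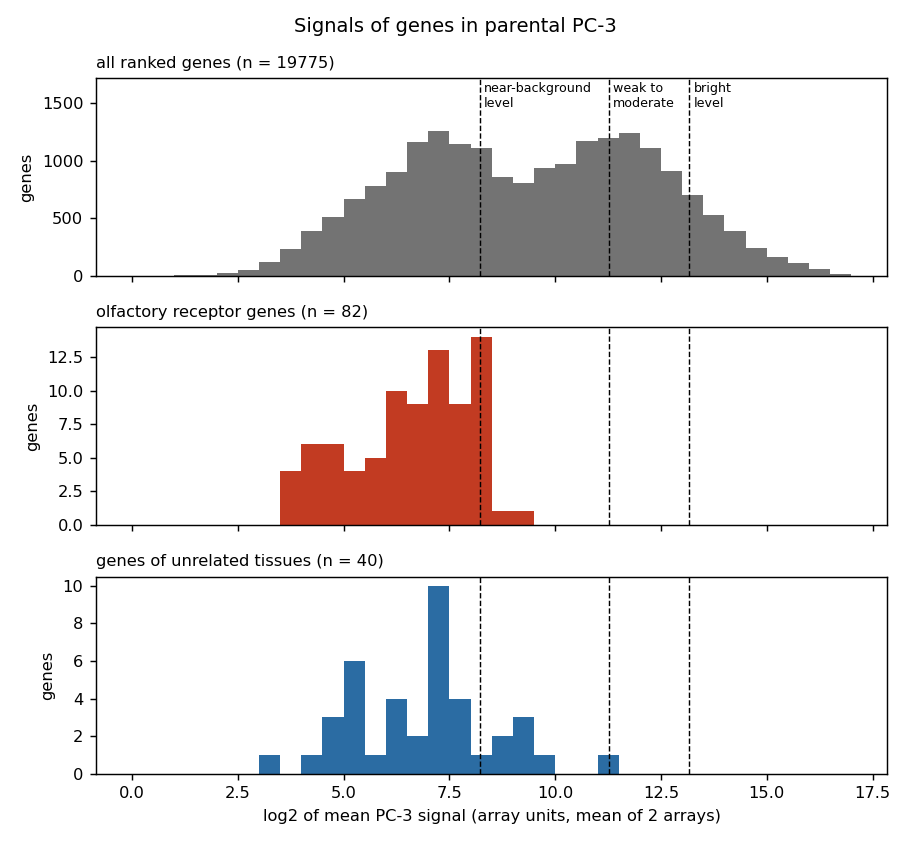
Number of genes by log2 of the mean signal of the 2 PC-3 arrays, for all 19775 ranked genes, for 82 olfactory receptor genes and for 40 genes of unrelated tissues, with the limits of the signal classes as dashed lines. All genes form a low and a high hump on either side of the near-background level of 298, and the olfactory receptors lie under the low hump.

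The brightest signals came from the cytoskeleton, the ribosome and the mitochondrial genome. Of the 25 genes with the highest mean, 12 encode ribosomal proteins, which build the subunits of the ribosome, and 5 are genes of the mitochondrial genome. ACTB had signals of 117954 and 111672. COX1, the mitochondrially encoded catalytic subunit of cytochrome c oxidase, had signals of 120468 and 105406. ND4, a mitochondrially encoded subunit of complex I, had signals of 111758 and 101268. Replicate 2 was below replicate 1 for all 3, and for 24 of the 25 brightest genes in all. The share lower on replicate 2 was 51.3% over the bright class and 52.2% over all genes. RPL39, the brightest ribosomal protein gene, had signals of 110411 and 99881. TUBA1B, an alpha-tubulin, had signals of 107158 and 98889. EEF1A1, the factor that brings aminoacyl-tRNA to the ribosome, had signals of 104877 and 92315. The calcium-binding protein S100A6 stood among these housekeeping genes, with signals of 103971 and 90426. The others of the 25 were COX2, RPL7, RPL30, RPS23, RPS10, RPL8, ATP6, RPS16, PPIA, RPL41, ND2, RPL37A, HSP90AA1, RPS21, RPS29, TPT1, the ferritin pseudogene FTH1P5 and RPL37. Of the 25 probe sets, 20 have names ending in _s_at or _x_at, the manufacturer's mark for probes shared by several transcripts or by similar genes. The signal of FTH1P5, of which the name is that of a processed copy, can therefore hold RNA of ferritin heavy chain.

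The ribosomal protein genes had the highest median percentile of the 33 lists. Of 53 measured members, 50 were bright, and the median member stood at percentile 99.7 of all genes, against 10.0% bright over all genes. RPL7 had signals of 110252 and 99645, RPL30 of 99624 and 93477 and RPS23 of 98939 and 94109. Within the bright members the lowest was RPL34, with signals of 46539 and 44006, so that the bright members spanned a range of a few fold. RPL27A, RPLP2 and RPL36A fell outside the bright class, with mean signals of 2005, 668 and 258. All 3 encode constituents of the same particle as the others, and their probe sets with a single gene symbol were dim here. Ribosomal protein genes have many processed pseudogenes, and without probe sets ending in _s_at or _x_at, 14 of 30 members remaining were bright. Their share was then below that of the proteasome, with 16 of 25, the respiratory chain, with 28 of 47, and the chaperones, with 14 of 24. It was also below that of the cell cycle list, with 22 of 41, and the translation factors, with 14 of 28. The antioxidant list, with 15 of 32, lay barely above it. Over all genes 1710 of 17098 were bright in this setting.

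Many ribosomal protein genes begin transcription at a cytosine within a run of C and T bases, the terminal oligopyrimidine tract, which places their messenger RNAs under growth-dependent translational control. RefSeq promoter windows (assembly GRCh38.p14, 300 bases from 250 before to 50 after the annotated start, the first listed window of a gene) were matched by symbol to 15384 of the ranked genes. A start at a C followed by at least 4 bases that were C or T, read on the transcribed strand only, was present in 34 of 47 ribosomal protein promoters (72.3%) and in 10 of 27 promoters of translation factors (37.0%). Over all promoters in the table the share was 4.04%, over all ranked genes 4.50%, over bright genes 8.53% and over genes near background 3.30%. The stretches from 40 bases before the start to 20 after it are shown for 6 ribosomal protein genes among the 25 brightest. They were taken in order of signal among genes with a window, with a chromosome excluded, and not by their sequence. RPL7, RPL30 and RPL8, each brighter than some of the 6, are not shown. All 6 have a run of C and T bases across the start. Capitals mark the unbroken run of C and T bases that holds the start. RPL39 lies at chrX:119791611-119791670, minus strand, RPS23 at chr5:82278335-82278394, minus strand, RPS10 at chr6:34426050-34426109, minus strand, RPS16 at chr19:39435930-39435989, minus strand, RPL41 at chr12:56116593-56116652, plus strand, and RPL37A at chr2:216498804-216498863, plus strand.
RPL39: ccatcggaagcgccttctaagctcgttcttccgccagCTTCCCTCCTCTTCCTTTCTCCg
RPS23: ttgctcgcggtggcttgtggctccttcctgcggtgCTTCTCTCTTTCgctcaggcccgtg
RPS10: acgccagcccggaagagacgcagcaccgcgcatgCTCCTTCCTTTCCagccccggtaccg
RPS16: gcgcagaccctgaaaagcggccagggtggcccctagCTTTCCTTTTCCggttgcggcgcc
RPL41: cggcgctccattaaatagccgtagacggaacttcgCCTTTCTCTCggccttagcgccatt
RPL37A: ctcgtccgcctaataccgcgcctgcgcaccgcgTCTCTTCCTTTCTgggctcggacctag
The marked run was 22 bases long in RPL39, the brightest of the 6, and 10 bases in RPL41, the shortest. The letters CGGAAG on either strand, a sequence that ETS factors can bind, were found in 68.1% of ribosomal protein windows, 40.7% of those of bright genes, 13.4% of those of genes near background, 25.8% of those of all ranked genes and 19.9% of all windows in the table. These matches describe letters and show no binding.

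Most genes of translation, protein folding and protein breakdown were bright, with median signals of 27959, 31838 and 22407 against 71058 for ribosomal proteins. Of 36 translation factors 32 were bright (median percentile 97.7), against 10.0% of all genes. EIF4G2, an initiation factor family member, had signals of 80444 and 78845, and EEF1D, a subunit of the elongation factor exchange complex, of 78906 and 76618. TPT1, a growth-related protein whose own messenger RNA carries a terminal pyrimidine tract, had signals of 90518 and 83527. EIF4A2, a helicase of the initiation complex, and EIF3C, a subunit of eIF3, were near background, with mean signals of 60.2 and 249. Both values come from probe sets with a single gene symbol, since sets with several were left out. EIF4A2 had no other such set, so these values do not show the genes to be silent. Of 30 chaperone and folding genes 27 were bright (median percentile 98.1). PPIA, cyclophilin A, had signals of 97382 and 88924. HSP90AA1, the inducible cytosolic HSP90, had signals of 93926 and 84931, and the constitutive HSP90AB1 of 59881 and 56294. The mitochondrial chaperonin HSPD1 had signals of 82714 and 75916. HSPB2, a small heat shock protein of muscle, was the one member near background, at 17.7 and 41.1. Of 32 proteasome and ubiquitin genes 27 were bright (median percentile 96.9). The polyubiquitin gene UBB had signals of 84581 and 75536, PSMA3 of 50579 and 50033 and PSMA2 of 44343 and 43095. The immunoproteasome subunits PSMB8, PSMB10 and PSMB9, which replace the constitutive catalytic subunits after interferon, were weak, with mean signals of 2098, 988 and 734. PSMA8, a subunit of the testis, was near background at 64.2 and 93.1. Without probe sets ending in _s_at or _x_at 14 of 28 translation factors were bright.

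Energy metabolism was bright for both glycolysis and respiration. Of 57 nuclear genes of the respiratory chain and ATP synthase 51 were bright (median percentile 96.9), against 10.0% of all genes. COX6C, a subunit of cytochrome c oxidase, had signals of 72663 and 69455. CYCS, cytochrome c, had signals of 70531 and 70177, and COX7C of 69615 and 66100.3. The muscle forms COX6A2 and COX7A1 stood at the other end, with mean signals of 368 and 79.8, against 66633 for COX6A1, the form of most tissues. ATP5MF, a membrane subunit of ATP synthase, was near background, at 81.2 and 56.0, on its only probe set with a single gene symbol. Of 21 glycolytic genes 12 were bright (median percentile 95.4). LDHA, which turns pyruvate into lactate, was the brightest, with signals of 86762 and 77940.2. ENO1 had signals of 75786 and 72315, GAPDH of 74448 and 70486 and PGK1 of 61672 and 56835. Of the members known as tissue-restricted, ENO2, a form of neurons, was moderate with a mean signal of 2624, ALDOC, of the brain, was weak with 1177, and PGAM2, the muscle mutase, was near background at 20.6 and 20.6. The glucose transporter SLC2A1 had signals of 2771 and 2923 and SLC2A3 of 164 and 98.0, near background. Without probe sets ending in _s_at or _x_at, 28 of 47 respiratory and 4 of 12 glycolytic members were bright.

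**Figure D2:**
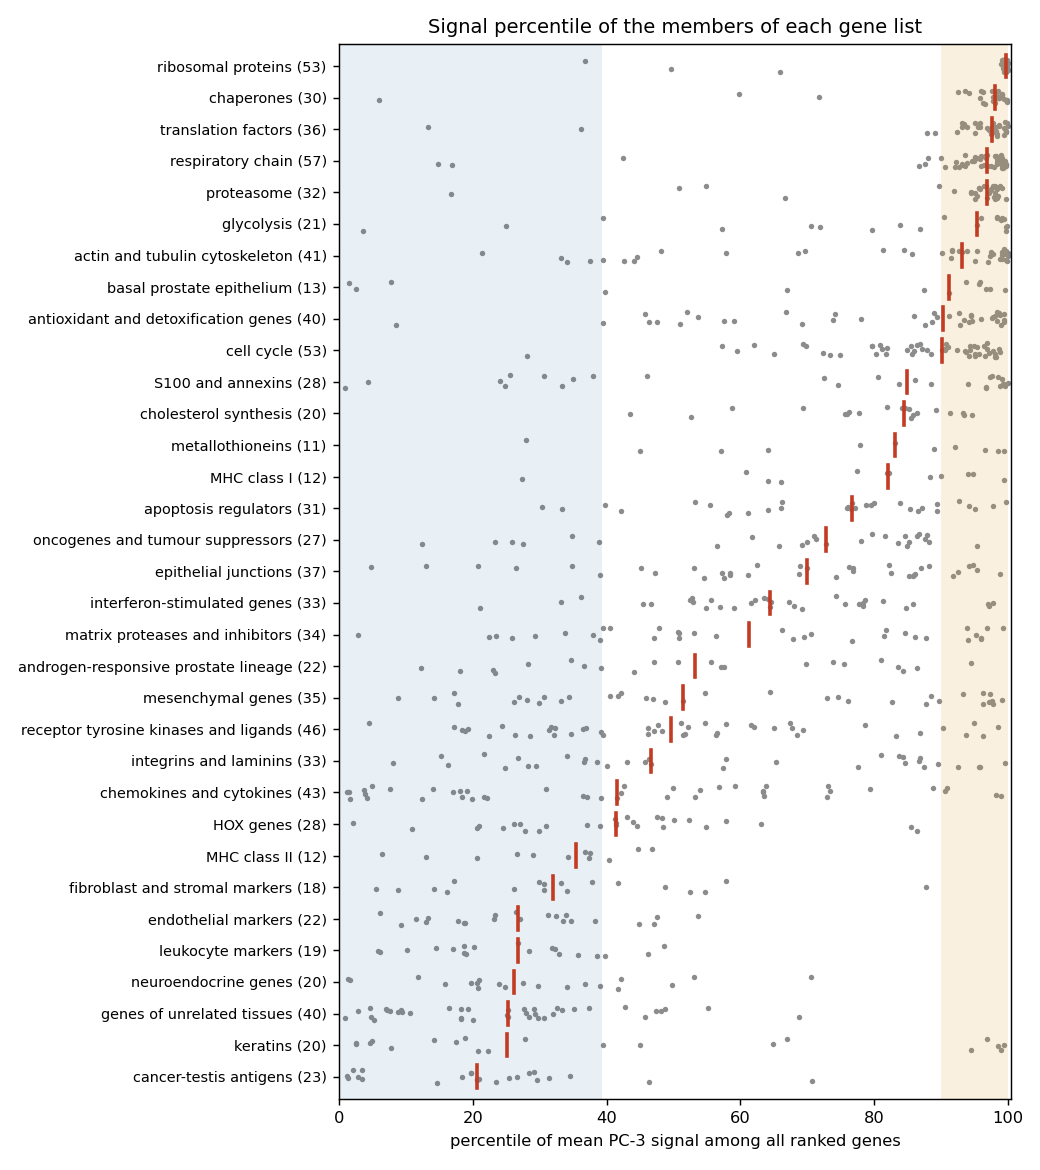
Percentile of mean PC-3 signal among all ranked genes for the measured members of each of the 33 gene lists, 1 point per gene, with the number measured in brackets and the list's median as a red bar. The blue band marks the near-background class and the orange band the bright class, and the medians run from 99.7 for ribosomal proteins to 20.6 for cancer-testis antigens.

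Genes of redox defence and metal binding were prominent as well. Of 40 antioxidant and detoxification genes 20 were bright (median percentile 90.4). Over all genes 10.0% were bright and 39.3% near background. PRDX6 and PRDX1, enzymes that break down peroxides, had signals of 62093 and 58418 and of 61129.6 and 55504. SOD1, the cytosolic superoxide dismutase, had signals of 61081 and 59009, and FTL, the ferritin light chain, of 46031 and 44656. ALDH1A1, an aldehyde dehydrogenase, was the lowest member and near background at 68.3 and 8.63, and HMOX1, the stress-induced heme oxygenase, was weak at 784 and 705. Of 11 metallothionein and zinc genes 4 were bright. MT2A had signals of 50445 and 58779 and MT1X of 32222 and 41408, each higher on replicate 2. MT1H and MT1F, with mean signals of 21365 and 11284, completed the bright members, and all 4 were read by probe sets ending in _s_at or _x_at, so these near-identical genes cannot be told apart here, and without such sets 0 of 6 were bright. MT4, a metallothionein of squamous epithelium, was near background at 113 and 195. Of 20 cholesterol synthesis genes 4 were bright, 12 moderate and 0 near background (median percentile 84.5). FDPS, which makes farnesyl diphosphate, had signals of 16045 and 14903, EBP, a sterol isomerase, of 12977 and 13592, and SQLE, squalene epoxidase, of 14018 and 11638. SC5D had signals of 11111 and 9676.

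Most genes of the proliferation program were bright or moderate. Of 53 cell cycle genes 27 were bright, 20 moderate, 5 weak and 1 near background (median percentile 90.2). Over all genes 10.0% were bright, 20.3% moderate, 30.3% weak and 39.3% near background. TYMS, which makes thymidylate, had signals of 43509 and 43279. RRM2, the small subunit of ribonucleotide reductase, had signals of 37052 and 40274. CDK1, the kinase of mitotic entry, had signals of 35049.9 and 31811 and PCNA, the clamp of DNA polymerase, of 31243 and 32886. The G1 cyclins were read very differently: CCND1 had signals of 30382 and 33595, and CCND2, the one member near background, of 131 and 180.3. Among oncogenes and tumour suppressors 1 of 27 was bright, 16 were moderate, 4 weak and 6 near background. MYC, a transcription factor that drives growth, had signals of 17774 and 16842. SPOP, a ubiquitin ligase adaptor mutated in some prostate cancers, had signals of 8335 and 7227, CDKN2A, which encodes the p16 inhibitor, of 8142 and 7269.6, and HRAS of 6901 and 8179. ERG, TERT and NF1 were near background, with mean signals of 119.5, 137 and 55.7. ERG is the ETS factor activated by gene fusion in many prostate cancers, and another fusion partner, ETV1, had signals of 6254 and 4804. With the mean of all probe sets of a gene, or without those ending in _s_at or _x_at, 4 members of this list were bright. Of 31 apoptosis regulators 5 were bright (median percentile 76.7). BIRC5, survivin, had signals of 29001 and 28743, BIRC2 of 16154 and 16845 and the anti-apoptotic MCL1 of 14283 and 15402. BMF and HRK, pro-apoptotic BH3-only proteins, were near background, with mean signals of 176 and 209, and BCL2 lay just above the limit at 300.1 and 309. On replicate 1 alone, with its own limit, 4 members of this list were near background, against 2 by the mean.

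The epithelial label of the line was checked against its markers. KRT18, the type I keratin of simple epithelia, had signals of 60110.5 and 58278, and its partner KRT8 of 23433 and 22688. KRT7 had signals of 39692 and 49494 and KRT19 of 38948 and 36323. The adhesion molecule EPCAM had signals of 44612 and 42292 and the cadherin CDH1 of 14396 and 15147. All 6 were bright on both arrays. The other CDH1 probe set had a mean signal of 1823, in the weak range. The keratin family was split: 5 of 20 measured members were bright, 0 moderate, 4 weak and 11 near background. KRT10, the fifth bright member, had signals of 15320.4 and 15105. KRT5 and KRT14, the pair of basal cells, were near background, with signals of 47.5 and 24.1 for KRT5 and of 11.1 and 22.5 for KRT14. KRT13 and KRT23 were near background too, with mean signals of 25.1 and 17.1. Leaving out sets ending in _s_at or _x_at, 1 of 14 keratins was bright, since the sets for KRT18, KRT7, KRT8 and KRT10 all end that way.

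The junction genes were mixed. Of 37 members 6 were bright, 13 moderate, 12 weak and 6 near background. The bright share was 16.2%, against 10.0% of all genes, and the share near background 16.2%, against 39.3%. DSP, desmoplakin of the desmosome, had signals of 17593 and 17193, and TJP1, a scaffold of tight junctions, of 15176 and 16111. CTNNB1, beta-catenin, had signals of 11458 and 10367. CTNNA1, alpha-catenin, had signals of 263 and 195, below the near-background limit on both arrays, and all 5 of its probe sets were near background. Among the desmosomal cadherins, DSG2, which is widespread, was moderate with signals of 7250.3 and 8386. DSG1, DSG3 and DSC1, all known from the epidermis, were near background, with mean signals of 24.5, 103 and 58.5. DSC3, of stratified epithelium, was weak with a mean of 1181, and PKP1, a desmosomal plaque protein of such epithelia, was bright at 10562 and 12972. The actin and tubulin list had 26 bright members of 41 (median percentile 93.2), led by ACTB and TUBA1B and by the thymosins TMSB4X, at 85595 and 83045, and TMSB10, at 84675 and 79382, which bind actin monomers. Its 4 members near background included the skeletal actin ACTA1, at 65.7 and 146, and the smooth muscle myosin MYH11, at 201 and 241. Without probe sets ending in _s_at or _x_at, 12 of 29 were bright.

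Markers of the secretory prostate gland were spread over the classes. Of 22 genes of the androgen-responsive prostate lineage 1 was bright, 7 moderate, 6 weak and 8 near background (median percentile 53.2), and the share near background was 36.4%, close to the 39.3% of all genes. The bright member was NDRG1, which also responds to low oxygen and other stresses, with signals of 16652 and 13912. HOXB13, a homeobox factor of the prostate, had signals of 7629.7 and 5895, SPDEF, an ETS factor of secretory epithelia, of 5771 and 5273, and the surface protein STEAP1 of 5320.1 and 6288. KLK2, a kallikrein, was near background at 176 and 61.8. KLK3, the gene of prostate-specific antigen, had signals of 1301 and 770.0 on a probe set ending in _x_at, while the means of its other 2 probe sets were 30.4 and 97.6, near background. MSMB and FOLH1, a secreted protein and a surface peptidase of the gland, were near background, with mean signals of 55.2 and 157. Of 13 genes of basal prostate cells 7 were bright and 3 near background. These shares were 53.8% and 23.1%, against 10.0% and 39.3% of all genes. CAV1, the coat protein of caveolae, had signals of 67192 and 61180.5, CAV2 of 25372 and 26166, and the hyaluronan receptor CD44 of 21518 and 22906. LAMB3, a chain of laminin of basement membranes, had signals of 16432 and 21151. KRT5, KRT14 and the neurotrophin receptor NGFR were near background, the last at 11.4 and 15.1, so that this list held bright surface and matrix genes beside dim basal keratins. Some well-known prostate genes had no probe set with a single symbol in the annotation used and were not analysed here.

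**Figure D3:**
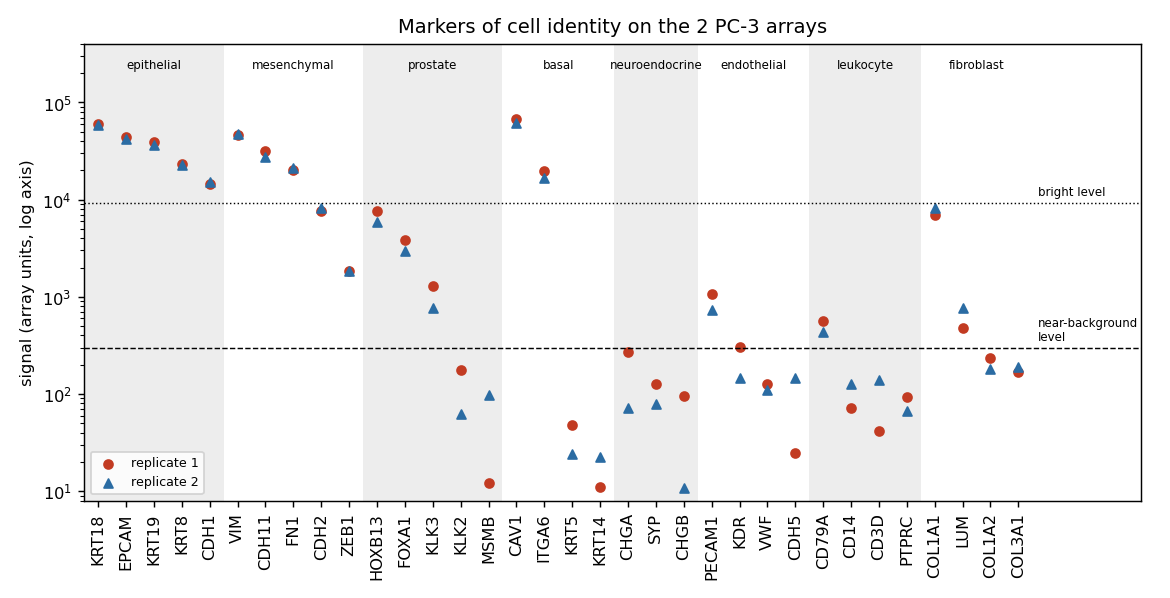
Signals of identity markers on the 2 PC-3 arrays (log axis, circles for replicate 1 and triangles for replicate 2), with the near-background level of 298 and the bright level of 9223 as lines. KRT18, EPCAM, KRT19, KRT8 and CDH1 lie above the upper line on both arrays, and KRT5, KRT14 and KLK2 lie below the lower one.

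Genes usually called mesenchymal lay in all 4 classes. Of 35 members 8 were bright, 7 moderate, 9 weak and 11 near background (median percentile 51.4). The bright share was 22.9%, against 10.0% of all genes, and the share near background 31.4%, against 39.3%. VIM, the intermediate filament vimentin, had signals of 45941 and 47129, while its other probe set was near background at 207 and 189. CDH11, a cadherin of osteoblasts, had signals of 31431 and 27793, and COL6A1, a chain of collagen VI, of 24705 and 31906. CCN1, a secreted matrix protein, had signals of 24955 and 26676, and FN1, fibronectin, of 19990.0 and 21035. Keratins 8 and 18 and vimentin were thus bright in the same RNA, which does not say whether the same cells held both, since in bulk RNA fewer cells of a type and less RNA per cell cannot be told apart. Of the transcription factors that repress epithelial genes, SNAI2 had signals of 4783 and 5670.0 and ZEB1 of 1859 and 1824. SNAI1 had signals of 44.2 and 268 and ZEB2 of 158 and 135, and the means of both were near background. SPARC and FAP, genes of stromal cells, were near background, with mean signals of 84.7 and 39.5. With _s_at and _x_at probe sets left out, 4 of 29 members were bright.

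Of 33 integrins and laminins 4 were bright, 9 moderate, 8 weak and 12 near background (median percentile 46.6). The bright share, 12.1%, and the share near background, 36.4%, were close to the 10.0% and 39.3% of all genes. ITGB1, the beta subunit shared by many matrix receptors, had signals of 66489 and 65234, ITGA6, the laminin receptor subunit, of 19888 and 16838, and ITGAE of 12055 and 11564. Of the integrins known from leukocytes, ITGAL and ITGAX were near background, with mean signals of 76.2 and 70.6, and ITGB2, the beta chain that pairs with both, was weak with 1192. ITGAE, named above, is known from lymphocytes within epithelia. Of 34 matrix proteases and inhibitors 7 were bright, 7 moderate, 12 weak and 8 near background (median percentile 61.3). PLAU, urokinase, had signals of 54519 and 49521, and PLAT, the tissue plasminogen activator, of 23935 and 22046. ADAM9 had signals of 20017 and 18708, and TIMP1, an inhibitor of matrix metalloproteinases, of 18947 and 19637. The secreted metalloproteinases MMP8, MMP13 and MMP12 were near background, with mean signals of 18.1, 113 and 120.2. Of 28 S100 and annexin genes 12 were bright and 9 near background (median percentile 85.0). These shares were 42.9% and 32.1%, against 10.0% and 39.3% of all genes. After S100A6 came ANXA2, which binds membranes and S100A10, with signals of 70017 and 64606, and S100A10 itself, with 54948 and 55617. ANXA7 had signals of 53131 and 49707. S100B, of glia, and S100A7, of skin, were near background, with mean signals of 10.7 and 22.9.

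The growth factor receptors and their ligands had 5 bright, 3 moderate, 21 weak and 17 near-background members of 46 (median percentile 49.7). The bright share, 10.9%, and the share near background, 37.0%, were close to the 10.0% and 39.3% of all genes. MET, the receptor of hepatocyte growth factor, had signals of 38662 and 36482. AXL, a receptor of GAS6, had signals of 19252 and 21205, EPHA2, an ephrin receptor, of 16765 and 15845, and EGFR of 14007 and 13425. TGFA, a ligand of EGFR, was the fifth bright member, at 9391 and 9709. KIT, the receptor of stem cell factor, was near background at 32.6 and 14.4, as were PDGFRB at 46.7 and 116 and EPHA3 at 164 and 15.7. Averaged over all probe sets of a gene, 3 members of this list were bright.

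Of 43 chemokines and cytokines 4 were bright, 5 moderate, 13 weak and 21 near background (median percentile 41.5). The bright share of 9.30% was close to the 10.0% of all genes, and 48.8% were near background against 39.3%. The bright members were MIF, macrophage migration inhibitory factor, with signals of 45624 and 44155, and 3 chemokines that attract neutrophils. CXCL8, interleukin 8, had signals of 35072 and 30831, CXCL1 of 9564 and 10558 and CXCL6 of 9949.9 and 9577. IL2, CXCL13 and IL10 were near background, with mean signals of 11.7, 12.8 and 13.6. Of 33 interferon-stimulated genes 3 were bright, 9 moderate, 18 weak and 3 near background (median percentile 64.4). Here too the bright share, 9.09%, was close to that of all genes, while 9.09% were near background against 39.3%. ISG15, a ubiquitin-like protein, had signals of 28785 and 28414, IFITM2 of 24618 and 25423 and IFITM3 of 23454 and 23782. IFIT1 followed at 7410.3 and 5579. BST2, XAF1 and GBP2 were near background, with mean signals of 104, 208 and 247. Apart from _s_at and _x_at probe sets, 1 of 25 was bright. The antigen presentation genes divided by class. Of 12 class I genes 3 were bright and 1 near background (median percentile 82.1), whereas of 12 class II genes 0 were bright and 9 near background (median percentile 35.4). B2M, the light chain of class I molecules, had signals of 62368 and 57467. HLA-C and HLA-B had mean signals of 15965 and 14284 on probe sets that can match several class I genes, and without such sets 0 of 8 class I genes were bright. HLA-E was just under the bright limit at 8850.3 and 9572. NLRC5, which activates class I genes, was near background at 90.4 and 210.0, as was CIITA, which activates class II genes, at 202 and 241. HLA-DRA, the class II alpha chain, was near background at 38.4 and 23.3, and HLA-DQA1 at 97.6 and 20.7. HLA-DMB was the highest class II member, at 564 and 470.5.

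Cancer-testis and neuroendocrine genes were mostly near background, and HOX genes mostly weak or near background. Of 28 HOX genes 0 were bright, 2 moderate, 14 weak and 12 near background (median percentile 41.4). Their share near background, 42.9%, was close to that of all genes. Over all genes 10.0% were bright, 30.3% weak and 39.3% near background. The moderate members were HOXB13 and HOXC6, the latter with signals of 6645 and 5915, and the next, HOXB3 and HOXB6, had mean signals of 1713 and 1232. HOXD12, HOXD10 and HOXB8 were near background, with signals of 17.2 and 13.1, of 31.5 and 66.6 and of 153 and 49.9. Of 23 cancer-testis antigens, proteins normally made in germ cells and in some tumours, 21 were near background (median percentile 20.6). PRAME stood apart from the other members at 2717 and 2592, and the next highest, MAGEA6, had signals of 523 and 475. GAGE1, MAGEA11 and MAGEA8 had mean signals of 11.9, 12.2 and 15.1. Of 20 neuroendocrine genes 0 were bright and 15 near background (median percentile 26.2). The highest was ENO2, at 2603 and 2645. The defining markers CHGA, CHGB and SYP, proteins of secretory granules and vesicles, were near background, with mean signals of 170.5, 53.3 and 103.

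Markers of other cell types a culture could hold were checked next. Over all genes 39.3% were near background, 30.3% weak and 10.0% bright. Of 22 endothelial markers 18 were near background and 0 bright (median percentile 26.8). Their summed signal was 4763 on replicate 1 and 4791 on replicate 2. PECAM1, an adhesion molecule of endothelium, was the highest at 1073 and 736, while CDH5, KDR and VWF had mean signals of 84.6, 226 and 117. ROBO4, FLT1 and EGFL7 were weak as well, with mean signals of 548, 529 and 444. Of 19 leukocyte markers 16 were near background (median percentile 26.8), with sums of 3428 and 3481. PTPRC, the pan-leukocyte CD45, was at 93.6 and 66.5 and CD3D, of T cells, at 41.7 and 140.3. The members above the limit were CORO1A, CD79A and CD79B, all weak, with mean signals of 607, 496 and 307. Of 18 fibroblast and stromal markers 12 were near background, 5 weak and 1 moderate (median percentile 31.9), with sums of 12054 and 14412. COL1A1, a chain of collagen I, made up most of these sums at 6869 and 8299, although the means of its other probe sets ranged from 154 to 2970.0. COL1A2 and COL3A1, which fibroblasts make together with it, had mean signals of 208 and 179, near background, and DCN, decorin, lay just above the limit at 347. The other weak members were ACTG2, PDGFRA, FBLN1 and LUM, with mean signals of 1224, 975, 826 and 616. Of 40 genes of unrelated tissues, such as hormones, globins and muscle proteins, 33 were near background (median percentile 25.3). Insulin, INS, was at 22.2 and 43.0, glucagon, GCG, at a mean of 10.7 and the sperm protamine PRM2 at 17.4 and 30.9. MBP, named for myelin but with transcripts in other cells, was the highest of them at 2578 and 2131.

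Bright genes also lay outside the lists. Of the 100 brightest genes 27 were in none of them, and the genes named next, which also reach below that rank, were chosen after their values were seen. DKK1, a secreted inhibitor of WNT signalling known in prostate cancer metastasis to bone, had signals of 81984 and 79827 and rank 33. SRGN, the proteoglycan serglycin of secretory granules, had signals of 69849 and 67135. MAL2, a protein of transport to the apical membrane, had signals of 64738 and 58009.7. ALDH1A3, which makes retinoic acid, had signals of 53827 and 58032, whereas ALDH1A1 of the same family was near background. CALB1, the calcium-binding calbindin, had signals of 50899 and 49404. HIF1A, the oxygen-regulated transcription factor, had signals of 50964 and 44687. All 6 genes lay above the lowest bright ribosomal protein gene, RPL34, which had a mean signal of 45272.

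Promoter sequence differed between the signal classes. The ratio of CpG dinucleotides observed to those expected from the base composition had a median of 0.88 in windows of bright genes, 0.86 of moderate, 0.80 of weak genes and 0.41 of genes near background. The letters GGGCGG on either strand, the GC box bound by SP1, were in 71.4% of bright and 39.2% of near-background windows, in 58.9% of windows of all ranked genes and in 44.6% of all windows in the table. CCAAT on either strand was in 39.8% of bright and 34.3% of near-background windows, with 36.1% over ranked genes, 35.7% over all windows in the table and 59.5% in the cell cycle list. TATAAA, the letters of the TATA box, was sought on the transcribed strand, lying wholly between 40 and 15 bases before the start. It was found in 2.36% of bright, 1.19% of moderate, 1.85% of weak and 5.21% of near-background windows. The share was 2.97% over ranked genes and 2.54% over all windows in the table. The motif was found in 6 of 32 chemokine and cytokine windows and in 8 of 26 of unrelated tissues. These are descriptions over genes, which are not replicates. The stretches of 4 genes of very different signal are shown with TATAAA in capitals. CYP3A4 and INS were taken because they carry the motif in this range, which limits how far its distance could vary. DKK1, bright here, lies at chr10:52314241-52314300, plus strand, CXCL8, also bright, at chr4:73740529-73740588, plus strand, CYP3A4, a weak gene of liver, at chr7:99784165-99784224, minus strand, and INS, near background, at chr11:2161190-2161249, minus strand.
DKK1: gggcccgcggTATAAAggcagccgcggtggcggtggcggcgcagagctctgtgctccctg
CXCL8: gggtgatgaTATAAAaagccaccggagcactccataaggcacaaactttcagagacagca
CYP3A4: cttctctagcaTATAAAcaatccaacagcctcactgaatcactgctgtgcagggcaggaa
INS: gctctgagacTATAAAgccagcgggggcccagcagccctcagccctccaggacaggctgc
The motif began 30 bases before the start in DKK1 and INS, 31 in CXCL8 and 29 in CYP3A4, beside mean signals of 80906, 32.6, 32951 and 618.

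**Figure D4:**
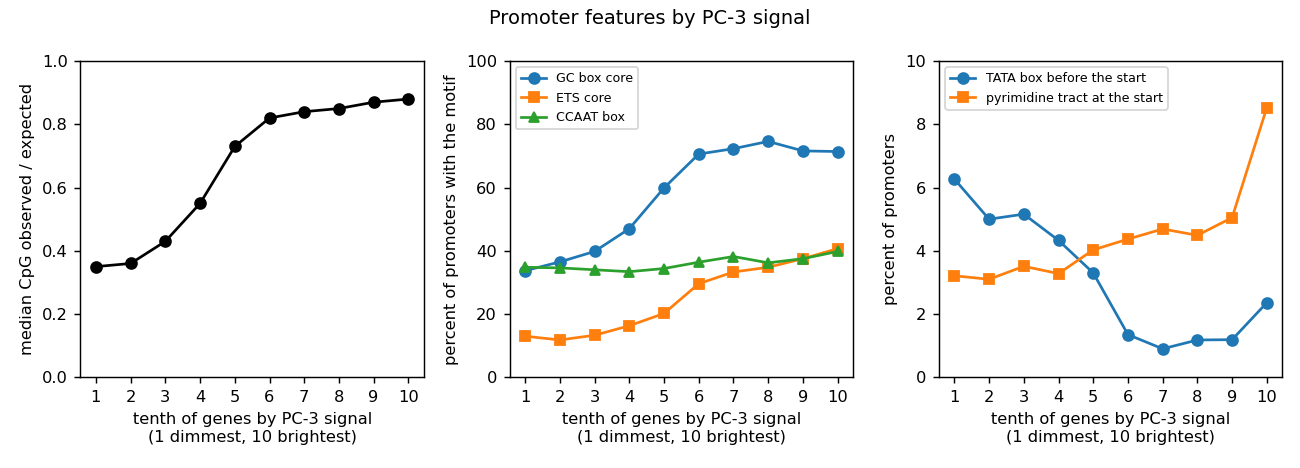
Promoter features in 10 equal groups of genes ordered by PC-3 signal (1 dimmest, 10 brightest): the median CpG ratio (left), the percentage of windows with the GC box, ETS and CCAAT letters (middle), and with TATAAA or the C and T start (right). The CpG ratio runs from 0.35 in the dimmest group to 0.88 in the brightest, and the C and T start is most frequent in the brightest group.

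The 2 arrays gave nearly the same values for bright genes and diverged for dim ones. The median absolute log2 ratio of replicate 2 to replicate 1 was 0.08 for bright genes, 0.12 for moderate, 0.22 for weak genes and 0.81 for genes near background. A difference above 2-fold was found for 0 bright, 1 moderate, 170 weak and 3297 near-background genes, the last being 42.4% of their class. Of the bright genes 1884 were also bright on each array alone, and 93 of the 100 brightest were shared. Among genes above the near-background level on both arrays, 5 had the largest ratios. They were GTF2IP20, a pseudogene, at 1294 and 307, CASTOR2, a gene of the mTORC1 pathway, at 342 and 1257, and LOC390705 at 912 and 305. The others were SNX33, a sorting nexin, at 446 and 1202, and the antisense RNA ATP2B1-AS1 at 545 and 1440.2. All 5 were weak genes. The signal ratio of 3′ to 5′ probe sets of ACTB, which rises when RNA is broken, was 1.20 and 1.16, and that of GAPDH 0.939 and 0.986.

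**Figure D5:**
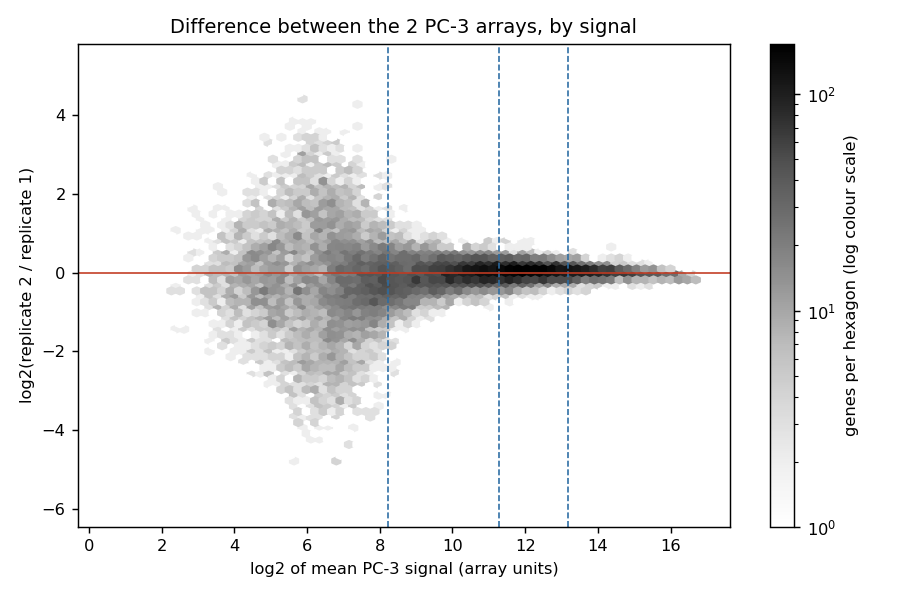
Log2 ratio of replicate 2 to replicate 1 against log2 of the mean PC-3 signal, with genes counted in hexagons (darker for more genes) and the limits of the signal classes as dashed lines. The cloud narrows as the signal rises, from a median absolute log2 ratio of 0.81 near background to 0.08 for bright genes.

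Most of this profile was shared with the derived lines. Ranked in the same way with their own limits, TEM4-18 had 85 and TEM2-5 had 88 of the 100 brightest PC-3 genes among their own 100 brightest. Of the bright genes of PC-3, 87.6% were bright in TEM4-18 and 89.7% in TEM2-5. Of the genes near background in PC-3, 94.3% and 92.7% were so in those lines. In TEM4-18, 7 genes that were bright in PC-3 were near background, which were CALB1, LCN2, CDH1, ESRP1, PRRG4, LNCAROD and TGFA, and in TEM2-5 there were 0. These shares are descriptions without a test, and each line rests on 2 arrays.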

How the data were processed

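The authors deposited linear signal intensities for every probe set. Per the submitters' processing notes, these came from MAS5, a version of which is not named. The genome build behind the array annotation is not given in the sources used here. The 1500.17 to 1500.18 range of the 2% trimmed means shows arrays scaled alike, and no further normalization was applied. Detection calls were not used here. Of 54675 probe sets, 62 were controls, 41091 others had 1 gene symbol in the platform annotation, and those with several or none were left out of the ranking. Symbols were matched by gene ID to RefSeq names of GRCh38.p14, which changed 0 and left 54 unmatched. A gene's signal is the linear mean of its brightest probe set over both PC-3 arrays, with the SD of 2 arrays as its error where given. The number of arrays limits the precision.

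The 33 gene lists, the signal classes and the genes were chosen with earlier results of these data known. Named are the 25 brightest genes, a short set of known prostate and epithelial genes, and the 5 largest array differences. From each list up to 4 of the brightest members are named, with up to 3 near background. Other genes were chosen after their values were seen. Levels, counts and promoter features were computed with Python 3.11.15, pandas 2.3.3 and numpy 2.4.6, with figures from matplotlib 3.10.9. The class assignment was tested on simulated data, where 99.2% of 5000 genes received their true class. The simulated noise was far smaller than the difference between these arrays near background. By design the brightest probe set also read the true level. That share therefore checks the calculation and does not measure how accurate the classes are in these arrays. No test between groups was made. Alternatives changed the background level, the probe set rule, the mean, the scaling and the arrays used.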

Additional observations from a re-analysis of the deposited data

Results flagged for a closer look

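The ranking used only probe sets with 1 gene symbol. Of the 13522 non-control probe sets with several symbols or none, 4437 had a mean PC-3 signal above the near-background level, and 412 were at or above the bright level. They stand here because they carry signal in data that the ranking does not use. No gene was named from them.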

How the results depend on the processing

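Of the 74 recomputed overall counts and medians, 73 stayed close to the reported value. Close was a loose mark, since 9401 genes near background against the 7774 reported counted as close. Without probe sets ending in _s_at or _x_at, 1073 of the bright genes reported were still bright among the 17098 genes left to rank, and fewer genes entered the ranking. Leaving out replicate 1 or replicate 2 gave 7456 and 7979 genes near background and 6160 and 5898 weak genes, and kept 1927 and 1935 of the bright genes. The number near background ranged from 6516, with the 75th percentile of olfactory receptors as the limit, to 9401, with the 90th percentile of genes of unrelated tissues. Of the list counts 610 stayed close and 50 moved. Settings that changed only the near-background level could not alter the bright members of a list, which depend on rank alone. Those comparisons were bound to stay close. The same holds for the overlaps of the 100 brightest genes between lines. The limit without OR51E1 and OR51E2 was chosen after seeing the data. Without the _s_at and _x_at sets 14 lists moved in their bright members, 2 of them upward, and 11 in their members near background, all upward. On replicate 1 alone 2 antioxidant genes were near background in place of 1, and on replicate 2 alone 0 ribosomal protein genes were. Averaging all probe sets of a gene left 1 HOX gene bright. With the limit from unrelated tissues 19 HOX genes were near background. With the 75th percentile, 5 class II, 5 protease and 5 prostate lineage genes were. Low signals limit what can be read near background, where the arrays differed by a median absolute log2 ratio of 0.81. No paired analysis was possible because a single group was described and no test was made.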

Other observations

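Probe sets of one gene often disagreed. Of 1336 bright genes with more than 1 probe set, 447 (33.5%) had another probe set near background. HUWE1, a ubiquitin ligase, was bright with signals of 86332 and 77286 on a probe set ending in _x_at, while its other probe sets had mean signals of 18744, 467, 436 and 344. Of the bright genes 52.8% were read by probe sets ending in _s_at or _x_at, against 15.6% of genes near background. The transferrin receptor TFRC, which takes up iron, and ODC1, the first enzyme of polyamine synthesis, were bright outside the lists, with signals of 52842 and 51540.3 and of 68055 and 71889. The AP-1 factor FOSL1 had signals of 42458 and 42761.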
